A study of Mus musculus with 25 samples.

Results

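The genes of 7 transcription factors known for setting helper T cell lineages were followed in whole mouse lung: Gata3, Rora, Tbx21, Bcl6, Maf, Batf and Ahr. They were picked by name, with earlier results of these data known. Each matched 1 of the 55421 genes of the deposited count table, and all 7 were among the 19654 genes that passed the filter on low counts. The 25 lung samples came from female wild-type C57BL/6 mice, in 5 groups of 5, each sample taken here as 1 mouse. The strain is C57BL/6J in the sample labels and C57BL/6cmdb in the design text. In a 2-week model, mice received saline, 10 µg or 100 µg of house dust mite (HDM) extract into the nose, and in a 12-week model saline or 100 µg. The sample labels call the lungs of the saline mice untreated. Ages, the dosing schedule, the time of day at collection and any batch are not given in the sources used here, and nothing in them describes sorted or pooled cells.

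As background, helper T cells take on one of several effector programmes, each held in place by a lineage factor. Gata3 directs the type 2 programme with the cytokines of allergy, and is also required by group 2 innate lymphoid cells. Tbx21 encodes T-bet, which directs the type 1 programme, and Bcl6 directs follicular helper cells and germinal centre B cells. Rora encodes a nuclear receptor that acts in type 17 cells, group 2 innate lymphoid cells and the circadian clock. Maf, Batf and Ahr act across lineages. Maf drives Il4 and Il21 and is also found in macrophages, Batf pairs with Jun and IRF proteins at lymphocyte genes, and Ahr is a ligand-activated receptor that supports Il22-producing cells and is abundant in barrier tissues. Several of these genes are thus also expressed outside T cells, and in whole lung fewer cells of a type and less RNA per cell cannot be told apart.

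Assigned counts reached 25.4 M to 51.9 M (M, 1000000) in 24 libraries. Replicate 4 of the 2-week saline group stood apart, with 7.23 M counts and a mitochondrial share of 9.80%, against 1.99% to 7.16% in the other 24. For the 7 factors, calls that changed without this library are given with and without it. Other values of the factors against the 2-week saline group are mostly given with it only, as are genes of other lists. Levels are in CPM, counts per 1000000 of the library size after TMM scaling. The TMM factor of replicate 4 was 0.633, against 0.975 to 1.06 in the other 24, which raises its CPM values. The lung label held: the 10 alveolar and airway epithelial genes summed to at least 17212 CPM in every library. The 16 genes of the T cell receptor complex and pan T cell list summed to 107 to 244 CPM, and the 5 lymph node stroma genes to 1.56 to 14.5 CPM with Ccl21a at 0 throughout. The 7 thymus genes summed to 9.96 to 14.5 CPM in the first 4 groups and 12.8 to 29.7 CPM after 100 µg at 12 weeks, where 1 of 4 tested rose over the group labelled saline; their part in the 12-week values was not tested. The 12-week saline group lay closer to the 12-week 100 µg group than to the 2-week saline group in its macrophage genes. The 13 genes summed in it to 1314 to 2226 CPM, against 495 to 615 CPM in the 2-week saline group and 1031 to 2322 CPM after 100 µg at 12 weeks. Model length, age, batch and exposure cannot be told apart in this. The group is called the group labelled saline at 12 weeks, and every 12-week contrast against it rests on that label.

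Per kilobase of annotated exon, Ahr had the highest level of the 7, at 22.7 CPM per kb on average over the 25 libraries. Rora, Maf, Batf and Bcl6 followed at 7.61, 7.49, 6.49 and 6.43 CPM per kb. Gata3 and Tbx21, the type 2 and type 1 factors, were the lowest at 2.59 and 1.12 CPM per kb. The exon length joins all annotated isoforms, so a gene expressed mainly as a short isoform is understated. Tbx21 rested on 12 to 166 counts per library and Gata3 on 62 to 484, against 518 to 8663 for Ahr, so the smallest changes are hardest to see in Tbx21.

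**Figure D1:**
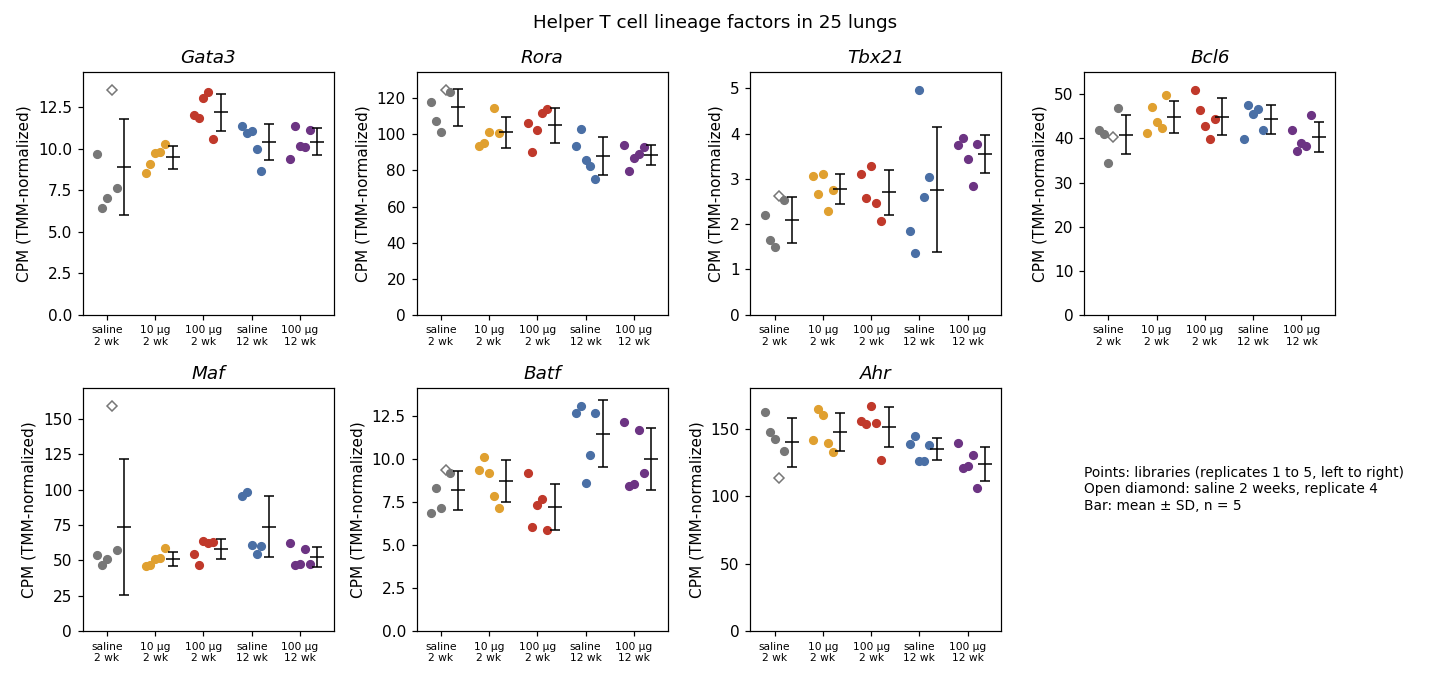
TMM-normalized level (CPM, linear axis from 0) of each factor in each of the 25 libraries by group, with the mean ± SD (n = 5) beside the points and replicate 4 of the 2-week saline group as an open diamond. Gata3 in the 2-week 100 µg group lies between 10.6 and 13.5 CPM, above all 5 libraries of the 10 µg group, and Maf has 3 libraries above 95 CPM.

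Gata3 (ENSMUSG00000015619, minus strand, GRCm38 chr2:9857078-9890034, protein coding) was the factor that rose with 100 µg of HDM at 2 weeks. The 5 lungs of the 2-week saline group held 9.71, 6.45, 7.06, 13.6 and 7.65 CPM. After 10 µg they held 8.53, 9.07, 9.74, 9.81 and 10.3 CPM, and after 100 µg they held 12.1, 11.9, 13.1, 13.5 and 10.6 CPM. All 100 µg lungs lay above all 10 µg lungs, and above the saline lungs apart from replicate 4, the shallow library, which was higher than any of them. At 12 weeks the group labelled saline held 11.4, 10.9, 11.1, 9.98 and 8.68 CPM and the 100 µg group 9.39, 11.4, 10.2, 10.1 and 11.1 CPM, so that these 2 groups overlapped, and their means lay between the 2-week saline and 100 µg means.

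Gata3 after 100 µg at 2 weeks was 1.43-fold of saline (log2 fold change 0.52 ± 0.14, SE; adjusted p = 0.0245, edgeR quasi-likelihood test with Benjamini-Hochberg adjustment over all genes tested, n = 5 against 5). Without saline replicate 4 the log2 fold change was 0.68 with an adjusted p of 0.00225. The call was lost when saline replicate 2 or 3, or 100 µg replicate 3 or 4, was left out, with adjusted p between 0.0543 and 0.0751, and when only the compared groups were fitted (0.53, adjusted p = 0.119). The step from 10 to 100 µg was 0.36 ± 0.13 on the log2 scale with an adjusted p of 0.483, in a comparison where 0 of the 19654 genes passed in edgeR (1666 at an unadjusted p under 0.05; 2 genes in DESeq2 and 0 in limma-voom), although 1 of the 7 factors and 1.81% of all genes had groups that did not overlap. After 10 µg alone the log2 fold change was 0.15 ± 0.14 (adjusted p = 0.667), and 0.32 ± 0.12 (adjusted p = 0.360) without saline replicate 4. At 12 weeks the log2 fold change of 100 µg over the group labelled saline was 0.00 ± 0.13, and the effects at 12 and 2 weeks differed by -0.52 ± 0.19 (adjusted p = 0.0920). That difference passed without saline replicate 4 (-0.68, adjusted p = 0.00968), in limma-voom (adjusted p = 0.0216) and in DESeq2 (adjusted p = 0.0254).

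Lists of other cells that may hold Gata3 transcripts were read beside this result. The 10 group 2 innate lymphoid genes summed to 191 to 227 CPM in saline and 186 to 259 CPM after 100 µg at 2 weeks, and 0 of 10 passed in edgeR. The 8 endothelial genes summed to 2922 to 3685 and 2999 to 3674 CPM, with 0 of 8 passing. Of the 16 pan T cell genes 1 rose, and their sums were 123 to 158 and 145 to 177 CPM. The part of T cell abundance in the Gata3 value was not tested in the gene-wise fit.

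The sequence before the RefSeq start of Gata3 is shown because this was the single factor called for the 2-week dose effect. It is the 250 bases upstream (GRCm38.p6, chr2:9878601-9878850, minus strand, printed 5′ to 3′), and an exon of the antisense transcript Gm13256 lies opposite it. Short motifs, 6 in all, were searched on both strands of such windows: E-box CACGTG, found in 6.02% of 32817 windows of this length, ROR half-site AGGTCA in 14.0%, AP-1 site TGANTCA in 6.75%, AhR core GCGTG in 28.1%, GATA site AGATAA in 9.99%, and T-box half-site AGGTGT in 11.8%. The Gata3 window held none of these letters, so nothing is in capitals.
Gata3: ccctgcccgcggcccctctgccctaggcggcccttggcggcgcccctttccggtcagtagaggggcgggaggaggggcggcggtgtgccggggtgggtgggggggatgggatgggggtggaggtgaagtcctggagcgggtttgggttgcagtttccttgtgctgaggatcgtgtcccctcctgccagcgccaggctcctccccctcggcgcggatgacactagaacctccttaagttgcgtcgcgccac

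Rora (ENSMUSG00000032238, plus strand, chr9:68653786-69388246, protein coding) was lower in the 12-week lungs than in the 2-week lungs. The 2-week saline group held 118, 108, 101, 125 and 124 CPM. The 10 µg group held 93.6, 95.1, 101, 115 and 100.5 CPM and the 2-week 100 µg group 106, 90.0, 102, 112 and 114 CPM. These 3 groups overlapped, and neither dose passed against saline (log2 fold change -0.19 ± 0.09 after 10 µg and -0.13 ± 0.09 after 100 µg). At 12 weeks the group labelled saline held 93.6, 103, 85.9, 82.4 and 75.4 CPM and the 100 µg group 93.9, 79.7, 86.9, 89.2 and 92.9 CPM.

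All 5 of the 12-week 100 µg lungs lay below all 5 of the 2-week saline lungs for Rora. In that contrast 38.7% of all genes had groups that did not overlap, so the split is not particular to Rora. The 2 saline groups overlapped for Rora in 1 lung labelled saline at 12 weeks. Rora fell between the saline groups by 0.38 on the log2 scale (SE 0.09, adjusted p = 0.000591, edgeR), and by 0.24 between the 100 µg groups (SE 0.09, adjusted p = 0.0267). The second call was lost without 2-week 100 µg replicate 4 or replicate 5 (adjusted p = 0.0641 and 0.0765). The 12-week 100 µg group against the 2-week saline group gave -0.38 ± 0.09 (adjusted p = 0.000753). With a circadian clock gene score as a covariate none of the 3 Rora calls was kept (-0.29, -0.19 and -0.24, adjusted p = 0.260, 0.324 and 0.592). The range of the score separates the groups of each of these contrasts. Within the 12-week model the log2 difference was 0.01 ± 0.09. Endothelial genes were also lower between the saline groups, with 4 of 8 down and 2 up and sums of 2922 to 3685 against 2381 to 2782 CPM, and the part of cell composition in the Rora values was not tested.

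Tbx21 (ENSMUSG00000001444, minus strand, chr11:97098071-97115331, protein coding) had its highest mean after 100 µg for 12 weeks. The 2-week saline group held 2.19, 1.65, 1.49, 2.62 and 2.53 CPM, the 10 µg group 3.07, 2.67, 3.10, 2.28 and 2.76 CPM, and the 2-week 100 µg group 3.12, 2.57, 3.29, 2.47 and 2.07 CPM. At 12 weeks the group labelled saline spread from 1.37 to 4.97 CPM (1.85, 1.37, 4.97, 2.61 and 3.03), while the 100 µg group held 3.76, 3.91, 3.44, 2.85 and 3.77 CPM. The 12-week 100 µg lungs all lay above the 2-week saline lungs, in a contrast where 38.7% of all genes did not overlap. Every other pair of groups compared overlapped for Tbx21.

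The 12-week 100 µg group had 1.74-fold more Tbx21 than the 2-week saline group (log2 fold change 0.80 ± 0.25, SE; adjusted p = 0.00843, edgeR), a contrast that joins dose and model length. With the clock gene score as a covariate, whose range separates these groups, the same contrast was -0.54 ± 0.59 and did not pass. Against the group labelled saline at 12 weeks the log2 fold change was 0.36 ± 0.24 (adjusted p = 0.303). Without replicate 3 of that group, the lung with 4.97 CPM, it was 0.67 with an adjusted p of 0.0280. Both doses at 2 weeks gave 0.45 ± 0.25 and 0.41 ± 0.25 over saline, and neither passed. T-bet is also a factor of natural killer cells, whose 8 listed genes summed to 56.6 to 75.4 CPM in the 2-week saline group and 37.3 to 67.8 CPM after 100 µg for 12 weeks, ranges that overlapped. In the same contrast 14 of 16 pan T cell genes rose (median log2 fold change 0.81, against 0.03 for all genes). The part of either cell type in the Tbx21 value was not tested.

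Bcl6 (ENSMUSG00000022508, minus strand, chr16:23965052-23988852, protein coding) passed in none of the 8 comparisons of the edgeR fit and varied little. The 2-week saline group held 41.9, 41.0, 34.4, 40.2 and 46.8 CPM, the 10 µg group 41.2, 47.1, 43.8, 42.3 and 49.8 CPM, and the 2-week 100 µg group 51.0, 46.5, 42.8, 40.0 and 44.3 CPM. The 12-week groups held 40.0, 47.6, 45.5, 46.7 and 41.8 CPM under the saline label and 41.8, 37.2, 38.9, 38.2 and 45.4 CPM after 100 µg. All 5 groups overlapped, with means between 40.3 and 44.9 CPM, and the log2 fold changes of the 7 two-group comparisons ran from -0.16 to 0.14. Leaving out 12-week 100 µg replicate 5 made the contrast of the 100 µg groups pass (-0.24, adjusted p = 0.0375).

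Maf (ENSMUSG00000055435, minus strand, chr8:115682942-115707794, protein coding) had the widest spread, which followed single libraries. The 2-week saline group held 53.9, 46.8, 51.0, 159 and 57.3 CPM. The 10 µg group held 46.0, 46.7, 50.7, 51.3 and 58.7 CPM and the 2-week 100 µg group 54.7, 46.5, 63.4, 62.3 and 63.0 CPM. The group labelled saline at 12 weeks held 95.3, 98.6, 60.8, 54.2 and 60.05 CPM and the 12-week 100 µg group 62.5, 47.0, 47.1, 57.8 and 47.7 CPM. Saline replicate 4 at 2 weeks and replicates 1 and 2 of the group labelled saline at 12 weeks were high, and the groups otherwise overlapped.

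The 3 libraries with the most Maf had mitochondrial shares of 5.97% to 9.80%, and the other 22 libraries, at 46.0 to 63.4 CPM, had 1.99% to 6.64%; the part of RNA quality in the Maf values was not tested. Maf passed in none of the 8 comparisons of the edgeR fit. For 100 µg against saline at 2 weeks the log2 fold change of Maf was -0.30 ± 0.24, and without saline replicate 4 it was 0.17. Without that library the contrast of the saline groups passed (0.49 ± 0.16, adjusted p = 0.0118), as did the difference of the 100 µg effects (-0.67 ± 0.22, adjusted p = 0.0470). At 12 weeks Maf after 100 µg was -0.49 ± 0.24 relative to the group labelled saline (adjusted p = 0.166).

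**Figure D2:**
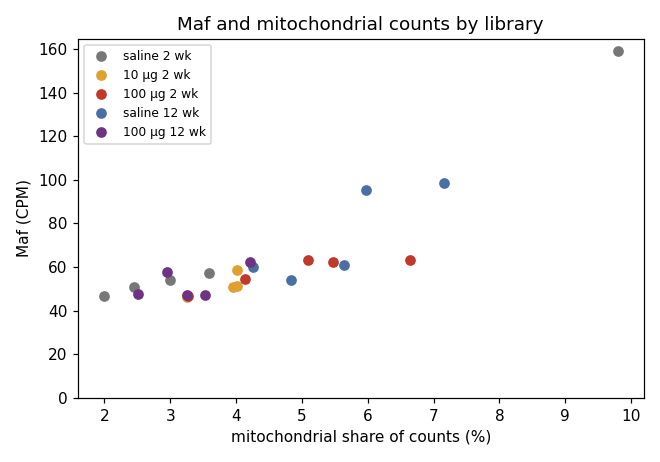
Maf level (CPM, linear axis from 0) against the mitochondrial share of assigned counts (%) in each of the 25 libraries, coloured by group. The 3 libraries above 95 CPM have shares of 5.97%, 7.16% and 9.80%.

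Batf (ENSMUSG00000034266, plus strand, chr12:85686669-85709087, protein coding) was higher in the 12-week lungs, the opposite direction to Rora. The 2-week saline group held 6.89, 8.34, 7.17, 9.40 and 9.20 CPM, the 10 µg group 9.37, 10.1, 9.20, 7.84 and 7.15 CPM, and the 2-week 100 µg group 9.18, 6.06, 7.31, 7.66 and 5.87 CPM. The group labelled saline at 12 weeks held 12.7, 13.1, 8.65, 10.2 and 12.7 CPM and the 12-week 100 µg group 12.2, 8.43, 8.57, 11.7 and 9.22 CPM. Of the lungs labelled saline at 12 weeks 4 of 5 lay above every 2-week saline lung, and the lowest of them overlapped.

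Batf rose 1.41-fold between the saline groups (log2 fold change 0.50 ± 0.15, SE; adjusted p = 0.00729, edgeR) and 1.39-fold between the 100 µg groups (0.47 ± 0.15, adjusted p = 0.0149). The second call was lost without 2-week 100 µg replicate 2, 12-week 100 µg replicate 1 or 12-week 100 µg replicate 4, with adjusted p between 0.0574 and 0.0753. With the clock gene score as a covariate both were larger, at 1.23 and 0.90. The score did not overlap between the groups of either contrast, so these values cannot separate model length from the score. Neither HDM contrast within a model passed (log2 fold change -0.17 ± 0.15 at 2 weeks and -0.20 ± 0.15 at 12 weeks).

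The upstream sequences of Rora and Batf are shown because both were called in the 2 contrasts between 12 and 2 weeks, in opposite directions. The Rora window is chr9:68653536-68653785 on the plus strand (GRCm38.p6, 250 bases), and capitals mark an AhR core, on the opposite strand, that begins 167 bases before the start. The Batf window is chr12:85686470-85686668 on the plus strand (199 bases, printed up to the first annotated exon, which takes the remaining 51 of the 250 searched), and capitals mark a GATA site, on the opposite strand, that begins 245 bases before the RefSeq start. A match describes the letters and is no evidence of binding.
Rora: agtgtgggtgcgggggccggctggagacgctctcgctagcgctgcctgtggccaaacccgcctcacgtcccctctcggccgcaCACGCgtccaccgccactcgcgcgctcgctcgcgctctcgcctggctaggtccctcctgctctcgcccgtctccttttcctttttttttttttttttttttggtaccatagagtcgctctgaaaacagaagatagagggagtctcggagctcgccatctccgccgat
Batf: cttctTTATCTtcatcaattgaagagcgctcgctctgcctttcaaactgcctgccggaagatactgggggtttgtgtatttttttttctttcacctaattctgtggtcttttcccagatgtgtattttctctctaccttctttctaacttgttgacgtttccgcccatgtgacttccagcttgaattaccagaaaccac

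Ahr (ENSMUSG00000019256, minus strand, chr12:35497974-35535038, protein coding) had the lowest mean after 100 µg for 12 weeks. The 2-week saline group held 163, 148, 143, 113 and 133 CPM, the 10 µg group 141, 165, 160.2, 140 and 133 CPM, and the 2-week 100 µg group 156, 154, 167, 155 and 127 CPM. The group labelled saline at 12 weeks held 139, 144, 127, 126 and 138 CPM and the 12-week 100 µg group 140, 121, 122, 131 and 106 CPM. All groups overlapped, and 4 of 5 of the 2-week 100 µg lungs lay above every 12-week 100 µg lung.

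Ahr fell by 0.29 on the log2 scale between the 2-week and 12-week 100 µg groups (SE 0.09, adjusted p = 0.0152, edgeR). With the clock gene score as a covariate, whose range separates these groups, the difference was -0.06 (adjusted p = 0.796). Between the saline groups the log2 difference was -0.06 ± 0.09. The lowest 2-week saline lung, at 113 CPM, was the shallow replicate 4. Without it, the 12-week 100 µg group was lower than the 2-week saline group by a log2 difference of -0.26 ± 0.09 (adjusted p = 0.0177), against -0.18 ± 0.09 (adjusted p = 0.106) with all 5 lungs. Upstream sequences of Ahr and Maf are not shown.

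The order of group means differed from factor to factor. Gata3 was highest after 100 µg at 2 weeks (12.2 ± 1.1 CPM, SD, n = 5), followed by the 12-week groups (10.4 ± 0.8 and 10.4 ± 1.1), the 10 µg group (9.48 ± 0.68) and saline at 2 weeks (8.89 ± 2.88). Rora was highest in saline at 2 weeks (115 ± 10.3 CPM), followed by the 100 µg and 10 µg groups at 2 weeks (105 ± 9 and 101 ± 8) and the 12-week groups (88.5 ± 5.7 and 88.0 ± 10.6). Batf was highest under the 12-week saline label (11.5 ± 1.9 CPM), followed by 100 µg at 12 weeks (10.0 ± 1.8), 10 µg (8.74 ± 1.22), saline (8.20 ± 1.15) and 100 µg (7.22 ± 1.34) at 2 weeks. In each of these 3 orders all neighbouring groups overlapped in range.

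**Figure D3:**
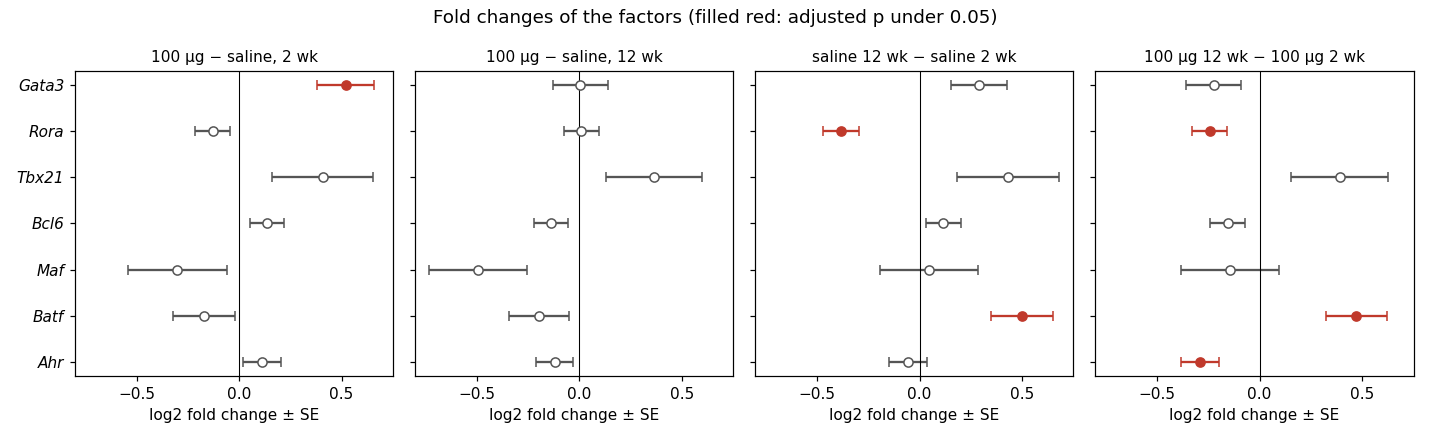
Log2 fold change ± SE of each factor from the edgeR fit over all 25 libraries in 4 comparisons, filled red where the adjusted p is under 0.05. Gata3 is the called factor for 100 µg at 2 weeks, none is called at 12 weeks, and Rora and Batf are called in opposite directions in both contrasts between 12 and 2 weeks.

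Taken by comparison, 0 of the 7 factors passed for 10 µg against saline at 2 weeks, where 0.0407% of all genes passed. For 100 µg against saline at 2 weeks 1 of 7 passed, against 8.13% of all genes, and for 100 against 10 µg 0 of 7 passed, against 0% of all genes. At 12 weeks 0 of 7 passed for 100 µg against the group labelled saline, where 8.36% of all genes passed, and 0 of 7 passed for the difference of the 100 µg effects (8.26% of all genes). In the comparisons of 10 µg with saline, of 100 with 10 µg and of the 12-week groups, 1 factor each had an unadjusted p under 0.05 in edgeR (Rora, Gata3 and Maf) and 0 were called in limma-voom and DESeq2. The difference of effects had 2 such factors, Gata3 and Bcl6, and 1 call, Gata3, in each of those tools. With 7 members, a single call beside 8.13% of all genes describes Gata3 and not the group.

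The contrasts between 12 and 2 weeks called a large share of all genes. In the contrast of the saline groups 2 of 7 passed (Batf up, Rora down), against 54.1% of all genes, and the median absolute log2 fold change was 0.29 over the factors and 0.44 over all genes. In limma-voom and in DESeq2 3 of 7 passed, with Gata3 added, against 10421 and 10946 of the 19654 genes. Without saline replicate 4, 4 of 7 passed (Gata3 0.43, Maf 0.49 and Batf 0.53 up, Rora -0.37), against 52.8% of all genes. In the contrast of the 100 µg groups 3 of 7 passed (Batf up, Rora and Ahr down), against 38.5%. In the 12-week 100 µg group against the 2-week saline group 2 of 7 passed (Tbx21 up, Rora down), against 53.7%. It was 3 of 7 in limma-voom and in DESeq2, again with Gata3, against 10367 and 10915 of the 19654 genes. Without saline replicate 4, 4 of 7 passed there (Gata3 0.42 and Tbx21 0.83 up, Rora -0.36 and Ahr -0.26), against 51.3% of all genes. In that reduced fit 1 of 7 passed for 100 µg against saline at 2 weeks (5.78% of all genes) and 2 of 7 for the difference of effects (11.3%).

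A circadian clock score moved with the groups; it was the mean log2 level of Arntl, Clock and Npas2 minus that of Dbp, Per3, Tef and Ciart. It ran from 0.47 to 1.80 in the 2-week saline group, -0.58 to 0.62 after 10 µg, -1.20 to -0.41 after 100 µg, -2.40 to -0.64 under the 12-week saline label, and -3.20 to -1.64 after 100 µg at 12 weeks. Of the 19 clock genes tested, 9 rose and 5 fell for 100 µg at 2 weeks, among them Dbp (log2 fold change 2.47 ± 0.31) and Arntl (-1.54 ± 0.20). With the score in the fit the Gata3 dose effect was 0.50 ± 0.25 with an adjusted p of 0.388, a similar size that no longer passed. Time of day at collection, HDM and model length cannot be told apart where the score does not overlap between groups.

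T cell transcripts as a whole moved with the 12-week lungs. The mean log2(CPM + 0.5) of the 16 pan T cell genes was 2.85 ± 0.14 (SD, n = 5) in saline and 3.12 ± 0.11 after 100 µg at 2 weeks, a difference of 0.28 (exact permutation test, two-sided, p = 0.0238; 0.0317 adjusted over 4 comparisons). At 12 weeks it was 3.67 ± 0.10 under the saline label and 3.63 ± 0.14 after 100 µg, a difference of -0.05 (exact p = 0.556). It was 0.83 higher between the saline groups and 0.51 higher between the 100 µg groups, each at the smallest exact permutation p that 5 against 5 allows, 0.00794, with no overlap between the groups. In the gene-wise edgeR fit 14 of 16 of these genes rose between the saline groups, such as Cd6 (log2 fold change 1.67 ± 0.18), Lck (1.15 ± 0.13) and Zap70 (1.03 ± 0.13), and 1 of 16 rose for 100 µg at 2 weeks. Cd4, the helper coreceptor, rose by a log2 fold change of 1.92 ± 0.19 between the saline groups, while Cd8a gave 0.18 ± 0.22, which did not pass.

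Set against these T cell genes in the same library, most factors were lower in the 12-week lungs, in contrasts where the T cell mean itself rose and many genes at large came out lower. The log2 level of a factor minus the T cell mean was compared by two-sided exact permutation tests, 28 in all, with Benjamini-Hochberg adjustment over the 28. Between the saline groups 5 of 7 relative levels were lower, namely Rora (-1.21), Ahr (-0.87), Bcl6 (-0.71), Gata3 (-0.57) and Batf (-0.37). On the same ratio 56% of the 19654 genes tested were lower with no overlap (median difference -0.78), so the count is no result about the factors. Each of the 5 had no overlap between groups, with exact permutation p = 0.00794 and adjusted p = 0.0185. Without saline replicate 4 all 5 passed (adjusted p = 0.0342, exact permutation test), with Gata3 at -0.40. Between the 100 µg groups Ahr (-0.80), Rora (-0.75), Gata3 (-0.72), Bcl6 (-0.66) and Maf (-0.65) were lower, all with the same p and no overlap, where 45.9% of all genes were lower with no overlap (median -0.49). Batf, whose own level rose, differed there by -0.06 (exact p = 0.627).

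Within models few relative levels differed. After 100 µg at 2 weeks the relative levels of Rora (-0.41) and Batf (-0.46) were lower, with no overlap (exact permutation p = 0.00794, adjusted p = 0.0185), where 12% of all genes were lower with no overlap. Gata3, whose own level had risen, differed by 0.21 (exact p = 0.381), and by 0.37 without saline replicate 4 (adjusted p = 0.159, exact permutation test). Neither of the 2 passed when Cd3e, Cd3d and Cd3g alone stood for T cells. At 12 weeks 1 factor passed, Maf (-0.41, exact p = 0.0159, adjusted p = 0.0342), and it was lost on leaving out any of 8 of the 10 libraries. On the same ratio 1.06% of all genes were lower with no overlap (median difference 0.05). The Maf groups overlapped, so Maf is not among these. The share of all genes that pass the permutation test as Maf did is not given here. Cells other than T cells also express Maf, Ahr and Rora, so these are ratios in tissue and not levels per T cell.

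**Figure D4:**
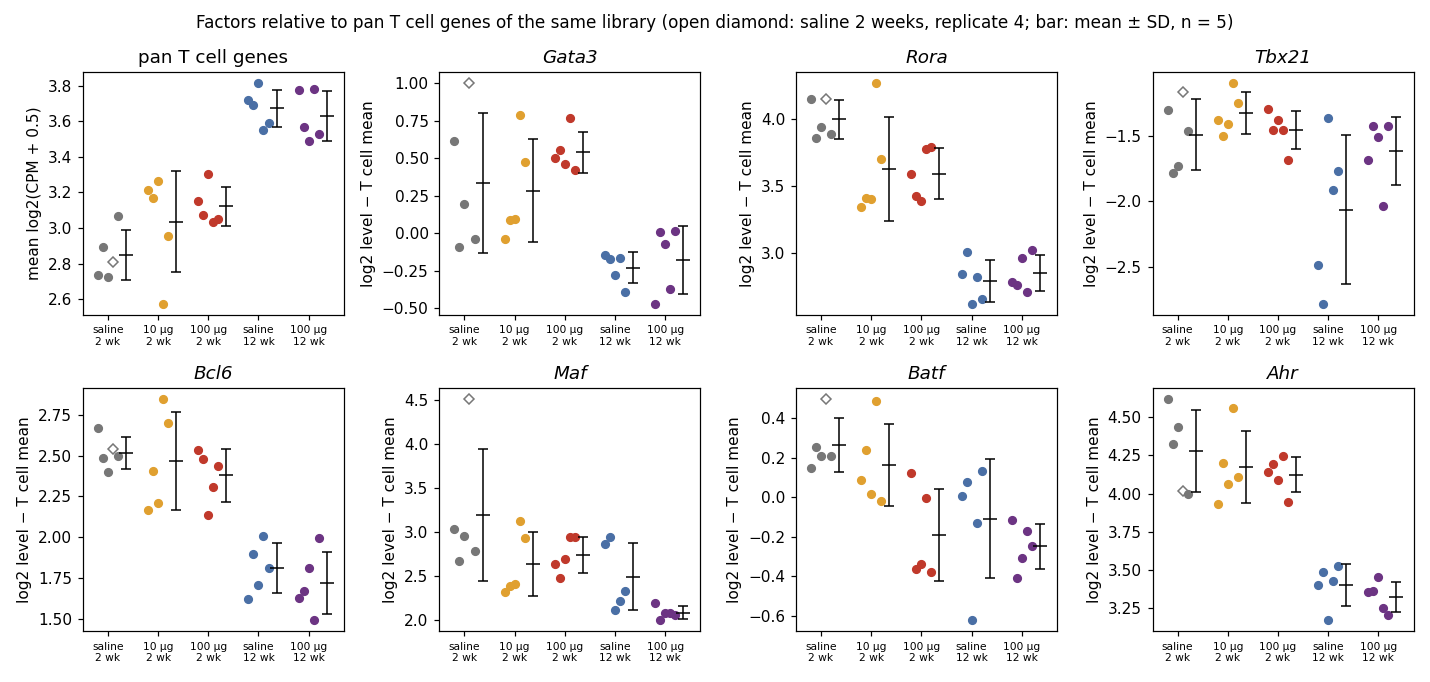
The first panel shows the mean log2(CPM + 0.5) of the 16 pan T cell genes per library, and the others show each factor's log2(CPM + 0.5) minus that mean, by group, with mean ± SD (n = 5). The T cell mean is 2.85 in the 2-week and 3.67 in the 12-week saline-labelled lungs, and the relative level of Rora is 1.21 lower in the latter.

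The effector genes these factors are known to direct were read in the 2-week model beside the 8.13% of all genes called there. Of 13 tested type 2 effector genes 0 passed for 100 µg against saline in edgeR (median log2 fold change -0.08, against 0.00 for all genes), and Il9 had 0 counts in every group. Of 12 type 1 genes 2 rose and 1 fell: Hlx, a homeobox partner of T-bet (0.78 ± 0.17), and the chemokine Ccl5 (0.66 ± 0.20) rose, and the receptor chain Il18r1 (-0.83 ± 0.19) fell. Il18r1 ran from 161 to 461 CPM in saline (median 197, mean 243), against 119 to 153 CPM after 100 µg. The 461 CPM were in replicate 4, the shallow library, and the fold change includes it. Of 9 type 17 genes 0 passed, and of 11 follicular helper genes 1 rose, the homing receptor Cxcr5 (0.61 ± 0.18). The B cell list moved beside it, with 4 of 10 genes up including Cd79a (1.04 ± 0.20), and the summed B cell level was 215 to 361 CPM in saline and 243 to 460 CPM after 100 µg; its part in the Cxcr5 value was not tested. Of 26 other T cell transcription factors 5 rose, among them Hlx, Zbtb7b, which sets the helper fate (0.34 ± 0.08), Ikzf1 (0.47 ± 0.12) and Tcf7 (0.48 ± 0.12).

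The same lists were read between the saline groups, where 54.1% of all genes passed. Of 13 type 2 genes 9 rose and 0 fell (median 1.07, against 0.04 for all genes), including the receptors Il9r (2.56 ± 0.22) and Ccr4 (2.03 ± 0.27). Gata3 itself gave 0.29 ± 0.14 with all libraries and 0.43 ± 0.12 (adjusted p = 0.00371) without saline replicate 4. Of 9 type 17 genes 8 rose, including Ccr6 (2.90 ± 0.34) and Il23r (1.53 ± 0.27), and Rora fell. Of 12 type 1 genes 5 rose and 1 fell, with Runx3 at 2.26 ± 0.27 and Il18r1 at -1.30 ± 0.19. The Il18r1 value includes replicate 4 of the 2-week saline group, the highest lung described above. Of 11 follicular helper genes 8 rose and 1 fell, including Icos (1.84 ± 0.19) and Pdcd1 (3.16 ± 0.38), which encodes PD-1, while Bcl6 gave 0.12 ± 0.09. In the contrast of the 100 µg groups 9 type 2, 6 type 1, 7 type 17 and 4 follicular helper genes rose and 0, 1, 0 and 1 fell, where 38.5% of all genes passed. No test compared the lists with the factors or with other genes.

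Partners of Batf and Maf were called in both directions between the saline groups. Of 15 AP-1, Maf-family and IRF genes 9 rose and 3 fell between the saline groups (54.1% of all genes), including Irf4, the DNA-binding partner of Batf in lymphocytes (2.09 ± 0.19), and Batf3, its relative in dendritic cells (2.67 ± 0.28). The 9 dendritic cell genes summed to 617 to 882 CPM in the 2-week and 2031 to 2175 CPM in the 12-week saline-labelled lungs, and 6 of the 9 rose. The 13 macrophage genes, whose sums are given above, had 10 up and 1 down. The part of these cells in the Batf3 and Irf4 values was not tested. Between the 100 µg groups, where Batf was also called, 9 of the 15 rose and 0 fell (38.5% of all genes). Within the 12-week model 4 of the 15 rose after 100 µg and 0 fell (8.36% of all genes passed). The 4 were Maff (0.73 ± 0.15), Mafk (0.59 ± 0.13), Jun (0.59 ± 0.13) and Jund (0.68 ± 0.18). The limits given below for the 12-week calls hold for these too.

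Targets and partners of Ahr were called in both directions, at shares close to those of all genes in the contrast of the saline groups. Of 12 tested, 3 rose and 1 fell for 100 µg at 2 weeks (8.13% of all genes): Nqo1, an antioxidant enzyme (0.91 ± 0.28), and the amino acid transporter Slc7a5 (0.47 ± 0.15) were among those that rose, and Tiparp, a direct target and repressor of the receptor (-0.32 ± 0.10), fell. Between the saline groups 5 rose and 2 fell (54.1% of all genes), with Slc7a5 at 1.60 ± 0.15 and Tiparp at -0.54 ± 0.10. Between the 100 µg groups, where Ahr itself fell, 3 rose and 3 fell (38.5% of all genes).

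At 12 weeks Foxp3, the factor of regulatory T cells, was lower after 100 µg than in the group labelled saline (log2 fold change -1.30 ± 0.27, adjusted p = 0.0179, edgeR), whereas none of the 7 factors passed. In this contrast 8.36% of all genes passed. Of the 26 other T cell transcription factors 1 rose there (Id3, 0.87 ± 0.27) and 2 fell (Foxp3 and Nfatc1, -0.33 ± 0.10). Of 11 follicular helper genes 3 fell, among them Cxcl13 (-1.34 ± 0.33) and Btla (-0.57 ± 0.16). The B cell list had 2 of 10 genes down, and its sum was 406 to 595 CPM under the saline label and 260 to 428 CPM after 100 µg; its part in these values was not tested. These 12-week calls also rest on the shared spread, since 0 genes passed when only the 2 groups compared were fitted. They rest on single lungs as well. Over all genes 0 passed without replicate 1 or 2 of the group labelled saline, or without 100 µg replicate 3. Without 100 µg replicate 5 or 2, 4 and 31 genes passed, and 987 to 3500 without any other lung of the 2 groups.

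**Figure D5:**
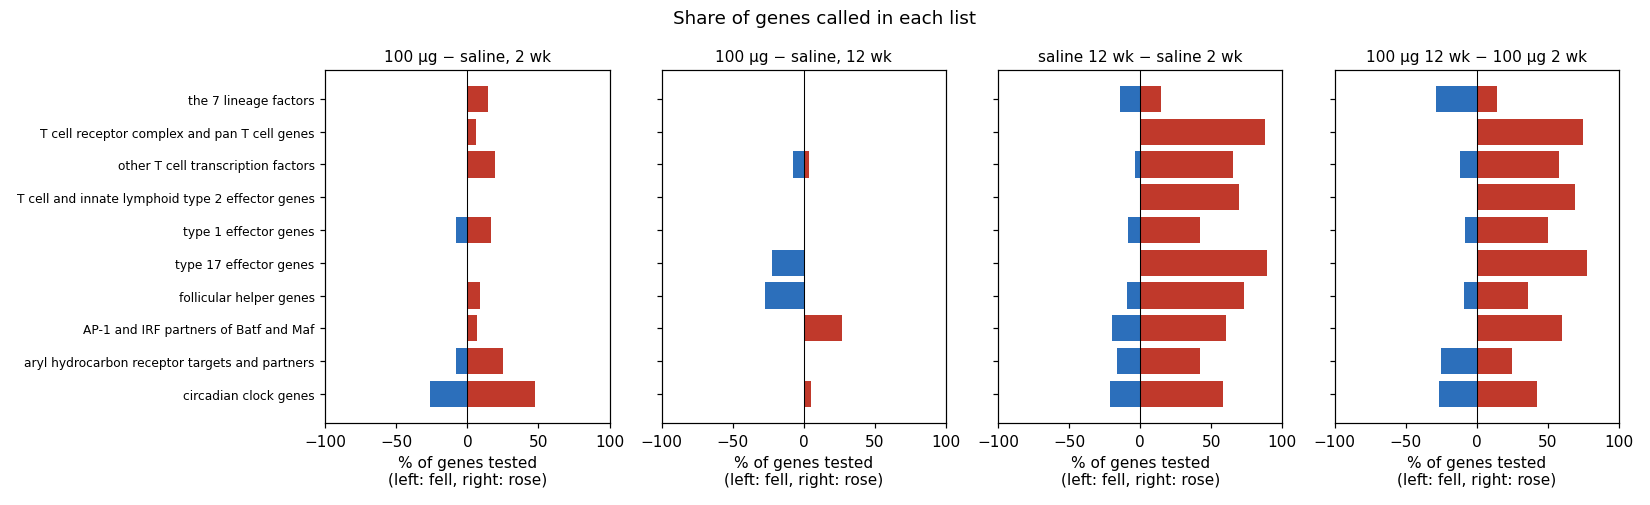
Share of tested genes (%) called as risen (right, red) or fallen (left, blue) in the 7 factors and 9 gene lists in 4 comparisons of the edgeR fit. In the contrast of the saline groups, where 54.1% of all genes were called, 14 of 16 pan T cell genes and 8 of 9 type 17 genes rose. Of the 7 lineage factors 1 rose and 1 fell.

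The genes whose profile over libraries was most like each factor were ranked by the lower of 2 Pearson correlations of log2 CPM, over the 15 libraries of the 2-week model and over the 10 of the 12-week model, among 15698 genes. The points share library depth and composition, and the values describe likeness, with no test. Gata3 was most like Fgf18 (0.78 and 0.83), Myb (0.78 and 0.84) and Erg (0.78 and 0.79), the last known as an endothelial factor. Tbx21 was most like Zfp346 (0.74 and 0.84), the cytotoxic coreceptor gene Cd8b1 (0.73 and 0.75) and Ccl5 (0.86 and 0.72). Rora was most like Zbtb38 (0.93 and 0.78), Camsap2 and Phf3, and Batf was most like Tarm1 (0.81 and 0.91), Arpc2 and Igsf6. Maf was most like Mon1b (0.95 and 0.98), Cobll1 and Gm42658, but without saline replicate 4 the 2-week value for Mon1b was 0.70. Bcl6 had no gene above 0.62 in both models, and Ahr was most like 5430427O19Rik (0.82 and 0.89).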

How the data were processed

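Total RNA from lung lobes was sequenced after TruSeq Stranded Total RNA preparation, per the labels' protocols. Reads were aligned to GRCm38 with STAR 2.5.3a, per the submitters' processing notes. The counting tool, strand setting and annotation release are not given in the sources used here. The deposited table holds raw counts per gene, and its Ensembl IDs were paired with symbols and GENCODE M21 coordinates. Genes that overlap a factor held at most 0.94% of its counts.

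Genes were filtered with filterByExpr, scaled by TMM, and fitted over all 25 libraries with edgeR 4.0.16 (R 4.3.3; quasi-likelihood test, Benjamini-Hochberg over 19654 genes, threshold 0.05). An SE is the log2 change divided by the root of the test's F. The procedure was tested on simulated counts. Levels relative to T cells used a pseudocount of 0.5 CPM and exact permutation tests. Nothing in the labels ties samples to litters, cages or days, and p-values measure the spread between these samples. No 2 libraries agreed within sampling noise (300 pairs). Counting error covers reads only.

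The members and gene lists were chosen with earlier results of these data known. Up to 4 called genes with the smallest p were named from each list, and the 3 most alike genes for each factor; a few genes that the rule names are not reported here. Alternatives were limma-voom 3.58.1, DESeq2 1.42.0, its size factors, other filters, a replicate block, a clock gene covariate, fits of the compared groups, another pseudocount and leaving out each library. Promoter sequences are RefSeq's (GRCm38.p6).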

Additional observations from a re-analysis of the deposited data

Results flagged for a closer look

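Maf in replicate 4 of the 2-week saline group stood far from the other 4 lungs of its group, at 158.9 CPM against 46.8 to 57.3 CPM. This is the library with 7.23 M counts and a mitochondrial share of 9.80%. It was the 1 sample to stand apart by this measure among 35 sets of 5 values (7 factors in 5 groups), where chance alone is expected to give 1.75, about 1 in 20. The values without it stand beside the Maf and Gata3 contrasts reported with the 2-week saline group, other than those with the clock gene covariate.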

How the results depend on the processing

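Of the fold changes of the factors under other settings, 1042 kept direction and side of the threshold, 20 came to pass it, 15 no longer passed and 1 reversed: Tbx21 in the 12-week 100 µg against the 2-week saline group, -0.54 with the clock gene covariate. Of the relative levels, 325 kept theirs and 11 no longer passed. The number of factors called for 100 µg against saline at 2 weeks was 0 with the clock covariate and 0 with only the compared groups fitted, and 0 to 1 when a library was left out. Over all genes 8, 244 and 611 to 2085 passed in these settings. For the difference of effects it was 1 in limma-voom (Gata3), 1 in DESeq2 (Gata3) and 1 with the clock covariate (Ahr), and 0 to 2 when a library was left out. Over all genes 1947, 2444, 2535 and 777 to 2602 passed in these settings. With the clock covariate it was 1 (Batf) in each of the 3 contrasts of 12-week with 2-week groups. Of all 19654 genes, 5445 passed there for the saline groups and 3931 for the 100 µg groups. For 100 µg at 12 weeks against saline at 2 weeks 2213 passed. When a library was left out the number of factors called was 0 to 1 for 100 µg against saline at 12 weeks, 2 to 4 for the saline groups and 2 to 4 for 100 µg at 12 weeks against saline at 2 weeks. Over all genes 0 to 3500, 9646 to 10532 and 9897 to 10410 passed in these 3 contrasts. Relative to T cells, 0 factors passed for 100 µg at 2 weeks with Cd3e, Cd3d and Cd3g alone, and 0 to 1 at 12 weeks when a library was left out. The cause of these shifts was not tested.

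Same-numbered samples of different groups did not deviate together (median r 0.00253), so the numbers pair nothing. With a replicate block the factors called were 1 for 100 µg against saline at 2 weeks and 0 at 12 weeks. They were 2 for the saline groups and 3 for the 100 µg groups, all as without the block. Of all 19654 genes, 1133, 1221, 10278 and 7123 passed with the block in these 4 contrasts. In the main fit 1597 genes passed for 100 µg against saline at 2 weeks, against 723 without the low-count filter, 244 with only the compared groups and 8 with the clock covariate. At 12 weeks 1644 passed, against 3072 in limma-voom, 2898 in DESeq2, 0 with only the compared groups and 3 with the clock covariate. Depth limits Tbx21 most, at 12 counts in saline replicate 4.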
